A study of Mus musculus with 8 samples.

Results

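The GIMAP family (GTPases of the immunity-associated protein family) was followed in cultured and naive mouse CD4+ T cells. Its 8 members, Gimap1, Gimap3, Gimap4, Gimap5, Gimap6, Gimap7, Gimap8 and Gimap9, were chosen by their symbols in the deposited table of raw counts, where they are 8 of 23366 genes. All 8 had enough counts to be among the 11629 genes tested. The 8 RNA-seq libraries form 4 groups of 2, all from C57BL/6 cells of spleen and lymph nodes. Of these, 3 groups were sorted naive cells that received antibodies to CD3e and CD28 together with TGF-beta and IL-6 and were harvested on day 3: cultures that also received PAM3CSK4 at 2 ug/ml (replicates 3 and 4), cultures that also received biglycan (replicates 7 and 8), and Th17 cultures without either ligand (replicates 1 and 2). The remaining group was naive cells without stimulation (replicates 1 and 2). The lipopeptide PAM3CSK4 is a synthetic agonist of TLR2 with TLR1, and biglycan is a matrix proteoglycan described as a ligand of TLR2 and TLR4. The study's text leaves it unclear if biglycan was given at that dose too. The comparison of Th17 with naive cells combines activation, culture time and polarization, which cannot be told apart in it.

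GIMAP proteins are GTP-binding proteins found mostly in lymphocytes. Many of them sit on intracellular membranes, and together they are known for keeping mature lymphocytes alive. They differ in whether they bind GTP as scaffolds, hydrolyse it, or activate one another as partners, and in the membrane they occupy. In mice and rats, loss of Gimap1 or Gimap5 leaves the animal with few peripheral T cells, which is why the family is read as a set of survival factors of resting T cells. The genes lie side by side in one cluster. In the RefSeq annotation of mouse build GRCm38.p6 they follow each other on chromosome 6 in the order Gimap8, Gimap9, Gimap4, Gimap6, Gimap7, Gimap1, Gimap5 and Gimap3, with 0 protein-coding genes of other families between the first and the last. Gene AI854703 lies on the Gimap8 side, and Tmem176b and Tmem176a on the Gimap3 side.

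The promoters of 4 members are shown, because these genes mark the ends of the range of responses: Gimap7 and Gimap6, which fell most in culture, and Gimap9 and Gimap1, which did not pass the test in Th17 against naive cells. Each sequence is the 250 bases before the RefSeq start in GRCm38.p6, written 5′ to 3′ on the gene's own strand. The counts themselves were made on build mm9, so these coordinates do not apply to them. Capitals mark AGGAAG or its reverse complement CTTCCT, letters of many ETS sites, and TGTGGT or its reverse complement ACCACA, the core of RUNX sites. The shorter letters GGAA, common to ETS sites, were not marked or counted. The windows are chr6:48718371-48718620 on the plus strand for Gimap7, chr6:48708245-48708494 on the minus strand for Gimap6, chr6:48675885-48676134 on the plus strand for Gimap9 and chr6:48738797-48739046 on the plus strand for Gimap1.
Gimap7: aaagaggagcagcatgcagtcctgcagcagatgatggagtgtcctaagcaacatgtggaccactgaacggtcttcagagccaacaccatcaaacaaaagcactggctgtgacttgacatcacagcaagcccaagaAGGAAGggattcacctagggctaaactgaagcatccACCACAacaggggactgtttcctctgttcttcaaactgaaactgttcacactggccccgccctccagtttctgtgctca
Gimap6: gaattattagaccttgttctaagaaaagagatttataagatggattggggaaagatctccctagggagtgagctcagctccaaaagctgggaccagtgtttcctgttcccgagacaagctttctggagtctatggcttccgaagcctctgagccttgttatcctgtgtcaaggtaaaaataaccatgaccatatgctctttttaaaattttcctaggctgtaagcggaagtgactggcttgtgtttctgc
Gimap9: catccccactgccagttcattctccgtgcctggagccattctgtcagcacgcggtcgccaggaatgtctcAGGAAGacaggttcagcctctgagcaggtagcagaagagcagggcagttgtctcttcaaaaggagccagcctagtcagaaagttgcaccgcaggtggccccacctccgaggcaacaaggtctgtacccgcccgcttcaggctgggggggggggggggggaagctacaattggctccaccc
Gimap1: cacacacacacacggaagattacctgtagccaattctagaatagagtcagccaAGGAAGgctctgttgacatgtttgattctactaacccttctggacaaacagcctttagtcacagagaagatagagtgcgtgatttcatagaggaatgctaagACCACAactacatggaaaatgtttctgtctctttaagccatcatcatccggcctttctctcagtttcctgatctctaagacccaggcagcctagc

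Both strands were searched. The ETS letters occurred in the promoters of 6 of the 8 members, all but Gimap6 and Gimap8 at each gene's first listed start (another listed start of Gimap8 has them), and in 29.2% of the 27025 genes with a RefSeq promoter. The RUNX letters occurred in Gimap1, Gimap4 and Gimap7 and in 14.2% of all genes. The FOXO letters GTAAACA occurred in Gimap3 alone of the members and in 3.09% of all genes. No capitals overlap in the printed windows. Gimap7, which fell, and Gimap1, which did not pass the test, both carry the ETS and the RUNX letters. Gimap6, which also fell, carries none of the 3 searched sets of letters in its window. That window does hold GGAA, in gcggaagtg, so its lack of an ETS match depends on the letters chosen. A match of letters is a description and shows no binding, and a window without a match says only that these letters are not in it.

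Gene counts per library summed to between 7012244 and 12533045, of which the family took 16459 to 38472, so its members were measured at depths from 54 counts (Gimap7 in one Th17 library) upward. The labels do not state that replicates were separate animals or cultures, and every p-value therefore rests on a spread between libraries that could be purely technical. As a check of identity, the 10 T cell markers summed to 6563 to 6687 CPM (counts scaled to the size of each library) with PAM3CSK4, 6493 to 6547 with biglycan, 6672 to 6856 in Th17 cultures and 6495 to 6787 in naive cells. Within that sum, 5 markers fell in Th17 against naive cells (Cd3e 1.91-fold, Cd4 1.89-fold, Cd3g 1.83-fold, Cd2 1.74-fold and Lck 1.33-fold), while Cd28 rose, with 2621 CPM in Th17 and 1087 CPM in naive cells, and so did Zap70. The 6 Th17 markers summed to 1602 to 2594 CPM over the cultures and to 10.9 to 14.2 CPM in naive cells, where Il17a, Il23r and Ccr6 had 0 counts. B cells also express several GIMAP genes. The 8 B cell markers summed to 2.82 to 3.71 CPM with PAM3CSK4, 1.16 to 1.38 with biglycan, 0.870 to 1.10 in Th17 cultures and 3.16 to 4.63 in naive cells. The 7 myeloid markers in the table summed to at most 5.03 CPM in cultures and to 8.47 to 11.8 in naive cells, and the 6 CD8 T and NK cell markers to 46.2 to 67.5 and 36.7 to 37.5. Within the CD8 T and NK cell list, Klrd1 was higher in Th17 than in naive cells (43.0 and 15.9 CPM), and Cd8b1 fell 4.20-fold (4.83 and 20.4 CPM, edgeR adjusted p = 6.68e-09). On the same list, Cd8a had only 4 counts in each naive library and 0 in both Th17 libraries, and Ncr1 had 0 counts in every group. Of the 8 endothelial markers, Tie1 and Emcn had 0 counts in every group. The endothelial sum, 129 to 213 CPM in cultures and 344 to 367 CPM in naive cells, was almost all Pecam1, which T cells also express. Red cell and platelet markers did not exceed 0.126 CPM in any library. Mitochondrial RNA took 14.3 to 16.1% of reads in cultures and 9.87 and 11.98% in naive cells. Between 13553 and 13774 genes were detected in cultures and 12847 and 12991 in naive cells. The summary line for no feature held 9.88 to 11.2% of the count table's sum in cultures and 13.0 and 14.4% in naive cells. The part of other cells and of these library measures in the members' differences was not tested. In bulk libraries such as these, fewer cells of a type and less RNA per cell cannot be told apart. All scaled levels here are shares of a library, so RNA per cell was not measured. The falls and rises given are changes of that share.

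The GIMAP family's share of library RNA was far lower in Th17 cultures than in naive cells. Summed over the 8 members, the family had 1567 and 1519 CPM with PAM3CSK4, 1730 and 1781 CPM with biglycan, 1680 and 1780 CPM in Th17 cultures, and 4750 and 4863 CPM in naive cells. The mean was 1730 ± 70.5 CPM in Th17 cultures and 4806 ± 80.2 CPM in naive cells (SD, n = 2 each), 2.78-fold lower in Th17. Each of the 8 members was lower in both Th17 libraries than in both naive libraries, but for Gimap1 and Gimap9 that direction turned on the scale of the deposited RPKM. By edgeR's quasi-likelihood test with Benjamini-Hochberg adjustment, 6 members fell, 0 rose and 2 did not pass. In this comparison 72.1% of all tested genes were called, 34.4% lower and 37.8% higher, and 40.1% were lower and 43.9% higher without overlap of libraries. With 6 of 8 members called, calls in either direction were about as common in the family as among all genes, while none of the calls was higher. The median log2 fold change of the members was -1.68, against 0.03 over all tested genes. Of the 8, 5 members were called and at least 2-fold lower, which held for 14.0% of all tested genes. On the deposited RPKM the called genes split differently, with 70.9% of them higher in Th17 rather than 52.4%. The same 6 members were still called lower, as were 2373 of the 11617 genes tested on that scale.

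**Figure D1:**
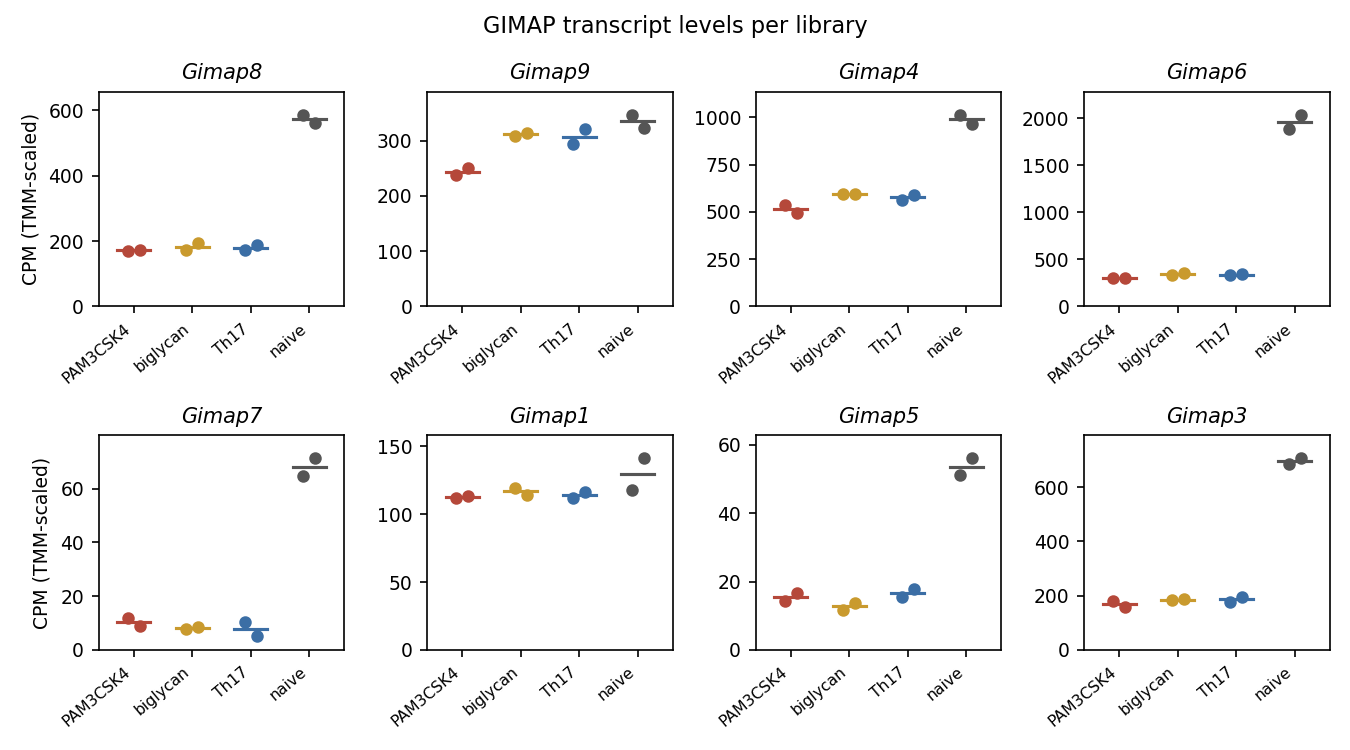
Level of each GIMAP gene in every library, in CPM, with PAM3CSK4, biglycan and Th17 cultures to the left of naive cells; points are single libraries, bars are group means, and each panel has its own linear axis from 0. Gimap7, Gimap6, Gimap3, Gimap5 and Gimap8 stand apart in naive cells, while the naive libraries of Gimap1 and Gimap9 lie nearer to the cultures, and Gimap9 is lowest with PAM3CSK4.

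The GTPases with the largest falls were Gimap7 and Gimap6. Gimap7, whose human counterpart is known to dimerize with other GIMAP proteins and to stimulate their GTP hydrolysis, had 11.8 and 8.86 CPM with PAM3CSK4, 7.88 and 8.57 CPM with biglycan, 10.3 and 5.22 CPM in Th17 cultures, and 64.7 and 71.2 CPM in naive cells. Both naive libraries were far above all 6 cultures. Gimap7 fell 8.62-fold in Th17 (log2 fold change -3.11 ± 0.19 SE, edgeR adjusted p = 5.78e-12). Without Th17 replicate 1, which held 122 counts, the log2 fold change was -3.71, and without Th17 replicate 2, which held 54, it was -2.72, so the size of the fall depends on single libraries while the call was kept. Gimap6, which has been linked to autophagy through its binding of the Atg8-family protein Gabarapl2, had 303 and 305 CPM with PAM3CSK4, 329 and 352 CPM with biglycan, 333 and 345 CPM in Th17 cultures, and 1886 and 2037 CPM in naive cells. The 2 naive libraries were close to each other, and no culture came near their level. It fell 5.79-fold in Th17 (-2.53 ± 0.08, edgeR adjusted p = 1.61e-16).

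Gimap3 and Gimap5 are neighbouring paralogs known for binding members of the Bcl2 family; Gimap5 is the gene lost in the lymphopenic BB rat and sits on lysosomes and related membranes. Gimap3 had 180 and 158 CPM with PAM3CSK4, 183 and 188 CPM with biglycan, 178 and 195 CPM in Th17 cultures, and 685 and 706 CPM in naive cells. Gimap5 had 14.3 and 16.6 CPM with PAM3CSK4, 11.7 and 13.8 CPM with biglycan, 15.4 and 17.8 CPM in Th17 cultures, and 51.1 and 56.0 CPM in naive cells. For both genes the naive libraries lay above all cultures. Gimap3 fell 3.73-fold in Th17 (-1.90 ± 0.08, edgeR adjusted p = 2.33e-14) and Gimap5 3.24-fold (-1.70 ± 0.13, edgeR adjusted p = 2.61e-10). The 2 genes share sequence: 190 windows of 50 bases are found in both transcripts, 9.06% of those of Gimap3 and 9.98% of those of Gimap5 in the GENCODE M21 annotation. Reads from these stretches cannot be assigned to one of them, so the lower Gimap5 count in particular is uncertain.

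Gimap8, the largest member, which carries several GTPase domains in a row, had 169 and 174 CPM with PAM3CSK4, 173 and 193 CPM with biglycan, 173 and 188 CPM in Th17 cultures, and 586 and 563 CPM in naive cells. All cultures were close to each other and below both naive libraries. Gimap8 fell 3.19-fold in Th17 (-1.67 ± 0.08, edgeR adjusted p = 1.29e-13). Gimap4, which in mouse and rat T cells is known to regulate the pace of apoptosis, had 539 and 492 CPM with PAM3CSK4, 596 and 597 CPM with biglycan, 565 and 592 CPM in Th17 cultures, and 1013 and 966 CPM in naive cells. It also did not overlap between Th17 and naive cells, but the gap was smaller. Gimap4 fell 1.71-fold in Th17 (-0.77 ± 0.08, edgeR adjusted p = 1.67e-08), the smallest fall among the 6 called members.

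Gimap1 and Gimap9 did not pass the test. Gimap1, which mature T and B cells of mice need for their survival, had 112 and 114 CPM with PAM3CSK4, 120 and 114 CPM with biglycan, 112 and 116 CPM in Th17 cultures, and 118 and 141 CPM in naive cells. The first naive library stood next to the cultures and the second above them. Its log2 fold change in Th17 was -0.19 ± 0.09 (95% interval -0.37 to -0.01, edgeR adjusted p = 0.0564). The adjusted p lay close to the threshold: Gimap1 was called lower without naive replicate 1 (-0.31, adjusted p = 0.00272) and with 2 other scalings of the counts, and on the deposited RPKM the sign turned to 0.16 (limma adjusted p = 0.196). Its transcript also shares 106 windows of 50 bases with the antisense gene Gimap1os, which has no row in the table, and the strand setting of the counting is not given in the sources used here, so reads of the 2 cannot be told apart.

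Gimap9, a small member with a single GTPase domain, had 239 and 250 CPM with PAM3CSK4, 309 and 314 CPM with biglycan, 294 and 321 CPM in Th17 cultures, and 347 and 323 CPM in naive cells. The 2 PAM3CSK4 libraries were the lowest of all 8, and the other groups lay close together. In Th17 against naive its log2 fold change was -0.12 ± 0.08 (95% interval -0.29 to 0.04, edgeR adjusted p = 0.154), and on the deposited RPKM the sign turned to 0.13 (limma adjusted p = 0.0998). On the deposited RPKM the median log2 fold change of all genes was 0.25, against 0.03 in CPM, and relative to that median Gimap1 was at -0.09 and Gimap9 at -0.12. Why the scales differ was not tested.

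**Figure D2:**
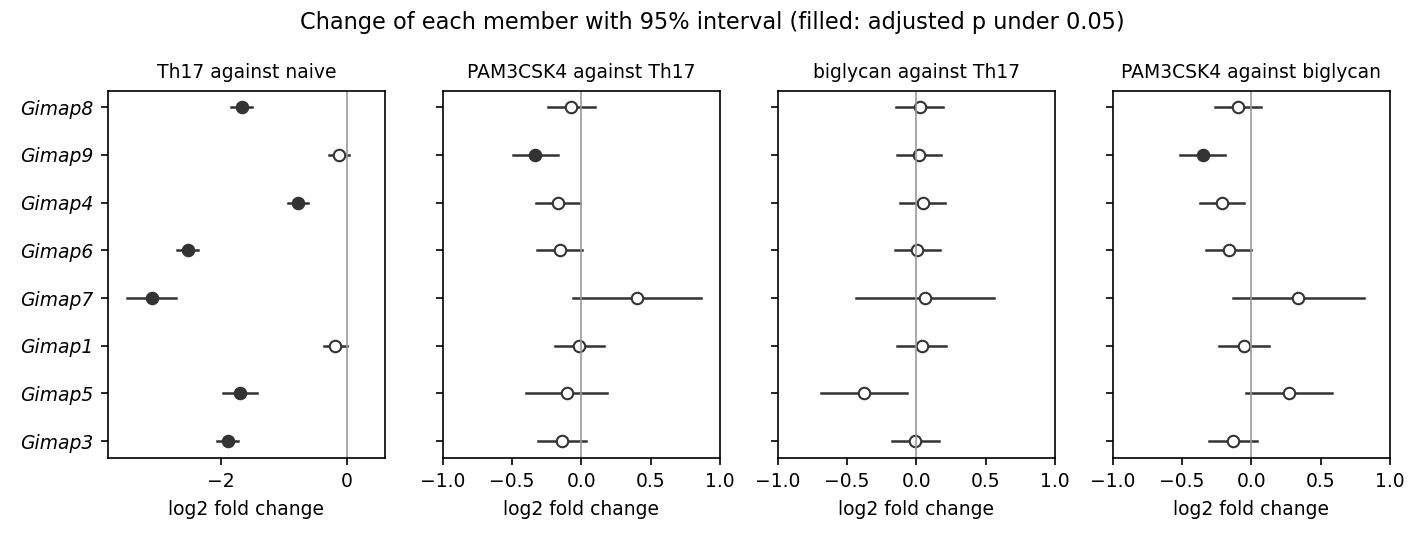
Log2 fold change of each GIMAP gene in the 4 comparisons, with 95% intervals from edgeR's quasi-likelihood model; filled points passed an adjusted p of 0.05. In Th17 against naive cells 6 genes lie at -0.77 or lower, while in the ligand comparisons only Gimap9 passed.

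Since the members did not fall alike, the make-up of the family changed. Per length, on the deposited RPKM, Gimap6 led in naive cells with 576 ± 57.2 RPKM (SD, n = 2). It stood at rank 3 in Th17 cultures with 124 ± 2.84 RPKM. Ranks between members rest on the gene lengths behind the RPKM, which are not known here. Gimap6 and Gimap8 have longest coding transcripts of 3179 and 3160 bases in GENCODE M21. Relative to the median gene, RPKM per count was 1.96 to 1.98 for Gimap6 and 0.77 to 0.84 for Gimap8. With a longer length for Gimap6 its RPKM would be lower, and its rank could change. Gimap4 led in Th17 with 202 ± 2.15 RPKM, and Gimap9 was second with 132 ± 7.16 RPKM. In naive cells the order from highest to lowest was Gimap6, Gimap4, Gimap3, Gimap9, Gimap8, Gimap1, Gimap7 and Gimap5, and no 2 neighbours in it overlapped between libraries. In Th17 cultures the order was Gimap4, Gimap9, Gimap6, Gimap3, Gimap1, Gimap8, Gimap5 and Gimap7. The last pair, at 3.83 ± 0.346 and 3.66 ± 1.72 RPKM, overlapped. With biglycan the 6 highest kept the order they had in Th17, with Gimap3 and Gimap1 overlapping, and Gimap7 stood above Gimap5. With PAM3CSK4 Gimap6 stood above Gimap9, at 115 ± 0.0495 and 109 ± 3.29 RPKM, and Gimap1 and Gimap3 overlapped.

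Shares of the family's RPKM do not depend on how libraries were scaled, but they do depend on the gene lengths used. RPKM per count of a member also varied between libraries, by up to 1.18-fold for Gimap5. Of the family's counts, without length, Gimap6 took a mean of 19.6% in Th17 cultures and 40.8% in naive cells. As a share of the family's RPKM, Gimap6 made up 20.7 to 22.0% over the 6 cultures and 43.8 and 45.9% in naive cells. Gimap4 made up 33.9 to 36.1% in cultures and 22.6 and 23.8% in naive cells. Gimap9 made up 19.8 to 23.2% in cultures and 8.89 and 9.88% in naive cells, and Gimap1 7.34 to 8.58% and 2.84 and 3.23%. The ratio of Gimap9 to Gimap6, both in RPKM, was 0.931 and 0.971 with PAM3CSK4, 1.118 and 1.05 with biglycan, 1.04 and 1.09 in Th17 cultures, and 0.226 and 0.194 in naive cells. On the deposited RPKM the cultures thus had about as much Gimap9 as Gimap6, and the naive libraries several times more Gimap6. These levels depend on the gene lengths behind the RPKM, which are not known here. A longer length for Gimap6 would raise each of these ratios.

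**Figure D3:**
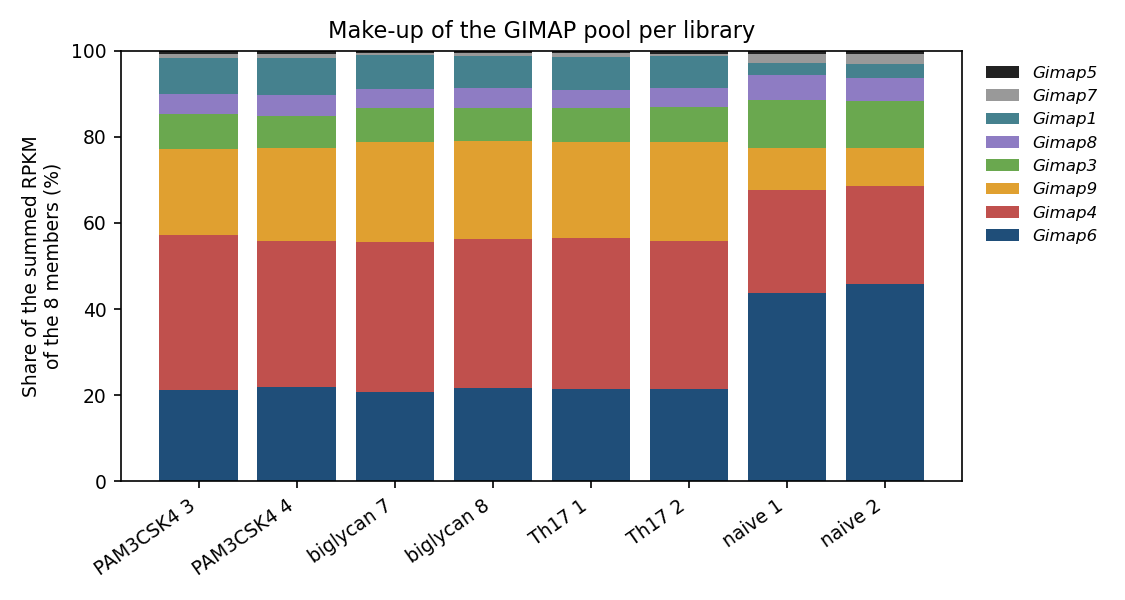
Share of each member in the summed RPKM of the GIMAP family, in percent, 1 bar per library with PAM3CSK4, biglycan and Th17 cultures to the left of naive cells. Gimap6 takes 43.8 and 45.9% in naive cells and at most 22.0% in any culture, where Gimap4 takes the largest share.

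Fall and position in the cluster can be read side by side. From the Gimap8 end to the Gimap3 end, the log2 fold changes in Th17 against naive were -1.67, -0.12, -0.77, -2.53, -3.11, -0.19, -1.70 and -1.90. Gimap7 and Gimap1 are neighbours and had the largest and one of the smallest differences, so adjacent genes did not share one value. Beyond the cluster, 7 of the genes listed as neighbours were tested on chromosome 6: 4 rose in Th17, 1 fell and 2 did not pass, a share of calls close to the 72.1% among all tested genes. Tmem176a, next but one to Gimap3, encodes a membrane channel protein and had 26.7 and 27.5 CPM with PAM3CSK4, 21.8 and 18.2 CPM with biglycan, 23.0 and 24.2 CPM in Th17 cultures, and 0.597 and 0.885 CPM in naive cells. All cultures were far above naive cells. Tmem176a rose in Th17 (log2 fold change 4.94 ± 0.26, edgeR adjusted p = 5.61e-13), as did its partner Tmem176b (4.19 ± 0.21, edgeR adjusted p = 2.46e-13). On the log2(RPKM + 1) scale, which understates the change of low genes, the values were 3.46 and 3.23. AI854703, on the Gimap8 side, fell (-0.90 ± 0.35, edgeR adjusted p = 0.0266) on 23 to 37 counts per library, and this call ended when naive replicate 2 (adjusted p = 0.153), Th17 replicate 1 (0.0656) or Th17 replicate 2 (0.081) was left out, with DESeq2 (0.0881) and on the deposited RPKM (0.142). The list of neighbours also held 4 genes that RefSeq places on another chromosome (Kcnh2, Nos3, Atg9b and Abcb8). With them, 6 of 10 tested genes rose and 2 fell.

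**Figure D4:**
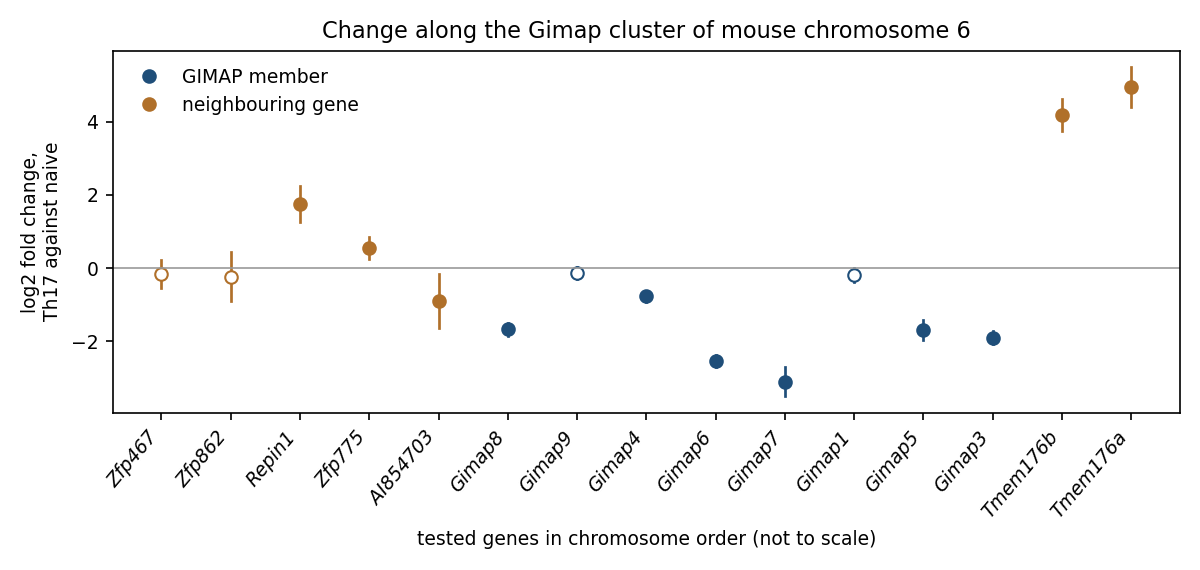
Log2 fold change in Th17 against naive cells for the GIMAP genes and the tested genes next to them, in their order along chromosome 6, with 95% intervals. The members lie between -3.11 and -0.12, and Tmem176b and Tmem176a beyond Gimap3 lie at 4.19 and 4.94.

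Genes of proteins reported as partners of GIMAP members were called in both directions. Of 11 genes on this list, 5 were called higher in Th17 against naive cells, 3 lower and 3 not at all, which is near the 72.1% called among all tested genes; their median log2 fold change was 0.18. On the deposited RPKM 9 were called, 8 higher and 1 lower. Of all 11617 genes tested on that scale 8148 were called, 5775 higher and 2373 lower. Bcl2, the survival protein that Gimap3 and Gimap5 are reported to bind, had 48.6 and 37.3 CPM with PAM3CSK4, 43.7 and 31.3 CPM with biglycan, 29.0 and 29.5 CPM in Th17 cultures, and 376 and 320.2 CPM in naive cells. It was lower in every culture, and fell 11.9-fold in Th17 (-3.57 ± 0.13, edgeR adjusted p = 1.58e-15). On the log2(RPKM + 1) scale its value was -2.84. Its relative Bcl2l1, which encodes Bcl-xL, went the other way: it rose in Th17 to 56.9 and 52.1 CPM, against 22.3 and 25.3 CPM in naive cells (1.19 ± 0.12, edgeR adjusted p = 1.2e-08). Among the Atg8-family genes of autophagy, Gabarapl1 rose to 47.1 and 43.1 CPM in Th17, against 7.02 and 6.07 CPM in naive cells (2.79 ± 0.14, edgeR adjusted p = 2.22e-13). Gabarapl2, the reported partner of Gimap6, had 3.12 and 2.71 CPM in Th17 and 5.53 and 6.83 CPM in naive cells, from 28 to 54 counts. It was called lower (-1.08 ± 0.27, edgeR adjusted p = 0.00125), but on the deposited RPKM the sign turned to 0.13 (limma adjusted p = 0.446), so no direction is given for it.

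Of 18 tested genes of naive T cell survival and recirculation, 13 fell in Th17, 1 rose and 4 did not pass. Their median log2 fold change was -0.87. With 14 of 18 called, the share was near the 72.1% of all tested genes, of which 34.4% were lower. On the deposited RPKM 11 were called lower and 2 higher, where of 11617 genes 2373 were called lower and 5775 higher. Il7r, the receptor for the survival cytokine IL-7, had 148 and 137 CPM in Th17 and 677 and 592 CPM in naive cells (-2.15 ± 0.08, edgeR adjusted p = 4.38e-15). Klf2, a transcription factor of T cell quiescence and trafficking, had 161 and 172 CPM in Th17 and 985 and 972 CPM in naive cells (-2.56 ± 0.08, edgeR adjusted p = 9.15e-17). Both genes fell by more, on the log2 scale, than Gimap3 did. Bach2, a repressor that restrains effector programs, was the 1 that rose (0.96 ± 0.09, edgeR adjusted p = 4.23e-09).

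The profiles of the members over the 8 libraries were also set against each other and against 8601 genes with a mean of at least 10 CPM, by the root mean square difference of log2 CPM after centring each gene. Among members, Gimap3 and Gimap8 were the closest pair, 0.134 apart, followed by Gimap1 and Gimap9 at 0.159. Gimap7 and Gimap9 were the farthest, 1.24 apart. Gimap3 and Gimap8 are at opposite ends of the cluster. Outside the family, the 6 genes nearest to the mean profile of the 8 members were Zfp869, Rhobtb2, Tex30, Cd84, Macf1 and Sipa1l1, at 0.0534 to 0.0704. The nearest single genes were Fam65b for Gimap3, Mycbp2 for Gimap8, Siah2 for Gimap6 and Klf4 for Gimap7, the last at 0.162. For most members the 3 kinds of culture lay close together, so these distances mostly measure the step between cultures and naive cells.

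Adding PAM3CSK4 to the polarization left 7 of 8 members without a call against Th17 cultures. Gimap9 was the exception and fell 1.26-fold, to the 239 and 250 CPM given above, against 294 and 321 CPM in Th17 cultures (-0.33 ± 0.08, edgeR adjusted p = 0.00841). Of all tested genes 9.99% were called in this comparison, 4.78% lower and 5.21% higher, so that 1 call among 8 genes says little about the family. On the deposited RPKM 68.2% of called genes were higher with PAM3CSK4, rather than 52.2%. The call of Gimap9 ended when Th17 replicate 2 (-0.27, adjusted p = 0.145), PAM3CSK4 replicate 3 (-0.30, 0.112) or PAM3CSK4 replicate 4 (-0.36, 0.0601) was left out, and on the deposited RPKM (-0.27, 0.0756), with the sign kept each time. Gimap4 and Gimap6 were also lower in both PAM3CSK4 libraries than in both Th17 libraries, at -0.17 ± 0.08 (adjusted p = 0.199) and -0.16 ± 0.08 (adjusted p = 0.242). Lower without overlap held for 3 of 8 members and 26.5% of tested genes. Gimap7 had the largest difference, 0.40 ± 0.22 (adjusted p = 0.296). Without Th17 replicate 1 it passed the test (1.00, adjusted p = 0.0138), and without Th17 replicate 2 it was 0.02 (adjusted p = 0.984). For all members the 95% intervals of the fold in PAM3CSK4 over Th17 lay between 0.711 and 1.82.

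Biglycan gave no call among the members. By edgeR's quasi-likelihood test 0 of 8 members and 0% of the 11629 genes passed against Th17 cultures, and DESeq2 also called 0 genes; at an unadjusted p under 0.05 there were 507 genes and 1 member. That member was Gimap5, with 11.7 and 13.8 CPM with biglycan and 15.4 and 17.8 CPM in Th17 cultures (-0.38 ± 0.15, unadjusted p = 0.0195 and adjusted p = 1 by edgeR). Gimap4 was the only member higher in both biglycan libraries, at 0.04 ± 0.08, and Gimap5 the only one lower in both. Without overlap 17.3% of tested genes were higher with biglycan and 16.9% lower. The 95% intervals of the members' folds in biglycan over Th17 lay between 0.619 and 1.47. They do not exclude changes of that size, so the members are not shown to be unaffected.

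The ligands were also compared with each other. Gimap9 was lower with PAM3CSK4 (239 and 250 CPM) than with biglycan (309 and 314 CPM), 1.28-fold (-0.35 ± 0.08, edgeR adjusted p = 0.00488). It was the 1 member called, against 11.5% of all tested genes, 5.88% lower and 5.66% higher. The call ended when PAM3CSK4 replicate 3 (-0.32, adjusted p = 0.078), biglycan replicate 7 (-0.36, 0.0625) or biglycan replicate 8 (-0.34, 0.0623) was left out. Gimap4 (-0.21 ± 0.08, edgeR adjusted p = 0.0818) and Gimap6 (-0.16 ± 0.08, edgeR adjusted p = 0.197) were lower with PAM3CSK4 without overlap. Both were called when only these 4 libraries were fitted (edgeR adjusted p = 0.0106 and 0.0496). That fit called 2228 of the 11629 genes, against 1342 in the main fit. In all, 5 members were lower with PAM3CSK4 without overlap and 2 higher, which held for 29.1% and 29.8% of tested genes. Both comparisons of PAM3CSK4 share the PAM3CSK4 libraries, and both ligands were set against the same 2 Th17 libraries, so their values are not independent.

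The other lists were read in the same way. With PAM3CSK4 against Th17, 3 of the 11 partner genes and 7 of the 18 survival and recirculation genes were called, where 9.99% of all tested genes were. Bcl2l1 rose to 75.3 and 88.5 CPM, against 56.9 and 52.1 CPM in Th17 cultures (0.58 ± 0.10, edgeR adjusted p = 0.000613). Bcl2l11, which encodes the death-promoting protein Bim, fell to 85.7 and 89.7 CPM, against 111 and 123 CPM (-0.41 ± 0.08, edgeR adjusted p = 0.00226), a call lost without Th17 replicate 2 (adjusted p = 0.0644) and on the deposited RPKM (0.0537). Bcl2 was higher in both libraries (0.56 ± 0.14, edgeR adjusted p = 0.0134), but this call ended when Th17 replicate 1 (0.0789), Th17 replicate 2 (0.107) or PAM3CSK4 replicate 3 (0.241) was left out, with DESeq2 (0.15) and on the deposited RPKM (0.153). Of the survival and recirculation genes, 6 fell with PAM3CSK4 (Klf2, S1pr1, Tcf7, Lef1, Cd27 and Slfn2) and 1 rose (Il4ra). Lef1, a transcription factor of naive T cells, had 450.1 and 455 CPM with PAM3CSK4 and 569.8 and 615 CPM in Th17 cultures (-0.39 ± 0.09, edgeR adjusted p = 0.0102). The 7 calls of this list became 0 to 6 when 1 library was left out and 0 on the deposited RPKM, so they are not firm. With biglycan 0 members of these lists were called. Between the ligands, 1 partner gene was called higher with PAM3CSK4 than with biglycan and 1 lower. Of the survival and recirculation genes 2 were higher and 5 lower, where 5.66% of all tested genes were higher and 5.88% lower. The higher partner gene was Bcl2l1 (0.45 ± 0.10, edgeR adjusted p = 0.00485), with log2 differences from 0.33 to 0.56 over the alternatives. With PAM3CSK4 against biglycan, Bcl2l11 was lower (-0.62 ± 0.08, edgeR adjusted p = 6.1e-05), and it stayed under the threshold in all alternatives tried.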

How the data were processed

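Messenger RNA was sequenced from 8 libraries prepared with a Qiagen kit and a stranded mRNA kit of Illumina, per the labels. The submitters' processing notes name Bowtie2, HTSeq and the mouse build mm9; tool versions, the gene annotation and HTSeq's strand option were not given in the sources used here. In the file the authors deposited, counts are raw whole numbers per gene for 23366 symbols. The 5 summary lines that name no gene were left out. The line for alignments that are not unique held 73.4 to 77.1% of the table's sum for a library, and genes 11.7 to 13.7%. Genes with near-identical copies can lose reads to that line. The sum is larger than the number of read pairs in every library, so these are not shares of reads. The deposited RPKM, scaled by the authors per length and library, served for levels between genes. The gene lengths used for it are not known here, and levels between genes depend on them. The percent of reads mapped, mitochondrial and ribosomal in the deposited mapping tables, per the file headers, described the libraries: 73.3 to 79.7% mapped, 9.87 to 16.1% mitochondrial (lower in both naive libraries than in all cultures) and 1.43 to 3.04% ribosomal. The biglycan columns carry other numbers in the count table than in the titles and were linked through the library numbers of the mapping table.

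The counts were tested with edgeR 4.0.16 in R 4.3.3, after filterByExpr by group and TMM scaling. All 8 libraries entered 1 quasi-likelihood fit (glmQLFit, glmQLFTest) with 4 group means, 4 residual degrees of freedom, a common biological coefficient of variation of 6.19% and 15.9 prior degrees of freedom. Calls were made at a Benjamini-Hochberg adjusted p below 0.05, adjusted across the 11629 genes that passed the filter. CPM were computed here with TMM-scaled library sizes, 1 count being worth 0.0784 to 0.149 CPM. Errors of log2 fold changes are standard errors. The procedure was tested on simulated data. Over the 4 comparisons it recovered 83 to 90% of changes of 1 log2 unit and 53 to 63% of changes of 0.5. Smaller changes were not simulated. The 2 libraries of a group differed by more than sampling noise in every group, with a chi-square per degree of freedom from 2.63 with biglycan to 5.96 in naive cells.

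Alternatives were DESeq2 1.42.0, other scaling factors, no filter, the 4 compared libraries alone, robust estimation, leaving out each library, a block for the replicate number, and limma 3.58.1 on log2(RPKM + 1), the last chosen after seeing the data. Members and gene lists were chosen with earlier results of these data known. All 8 members are named with every library; of the other lists, up to 4 genes at the extremes among called genes and genes called in a ligand comparison are named, and the genes nearest in profile, with 0.5 CPM added before the log. Some genes allowed by that rule are not named here. Promoters came from RefSeq on GRCm38.p6, matched by symbol for 8 of 8 members, and shared windows from the longest coding transcript in GENCODE M21, with read-through transcripts left out.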

Additional observations from a re-analysis of the deposited data

Results flagged for a closer look

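One result was picked out because it was called in the test between the ligands, so that test is not separate support for it. Gimap9 had 239 and 250 CPM with PAM3CSK4 and 309 and 314 CPM with biglycan, and the test of the difference between the ligands gave a log2 difference of -0.35 (edgeR's quasi-likelihood test, adjusted p = 0.00488). It was lower in 2 of 2 PAM3CSK4 libraries than in both biglycan libraries, which held for 29.1% of all tested genes. Over the alternatives the log2 difference ran from -0.3853 to -0.3197, so the sign was kept. The call was lost when PAM3CSK4 replicate 3, biglycan replicate 7 or biglycan replicate 8 was left out. The 7 other members did not pass.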

How the results depend on the processing

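In Th17 against naive cells, 6 or 7 members were called lower under all 12 alternatives; the seventh was Gimap1, also under the replicate block (-0.18, adjusted p = 0.0356), with which 7 members and 8570 genes were called. The samples share only a number: same-numbered naive and Th17 libraries deviated together with r = 0.04 over 11629 genes and 2 pairs, and the ligand groups share no number with Th17. With PAM3CSK4 against Th17, 1 member was called, 0 on the deposited RPKM and 0 to 2 with 1 library left out. With PAM3CSK4 against biglycan, 1 was called, 3 when only those 4 libraries were fitted and 0 to 1 with 1 library left out. With biglycan 0 members were called under all 11 alternatives. Signs turned on the deposited RPKM for Gimap1 (0.16), Gimap9 (0.13) and Gabarapl2 (0.13) in Th17 against naive, for Gimap1 with PAM3CSK4 against Th17 (0.0314) and for Gimap3 with biglycan (0.075). With 1 library left out, values not called ran across 0: with PAM3CSK4 against Th17 from -0.0409 to 0.0137 for Gimap1 and -0.21 to 0.0012 for Gimap5, and with biglycan from -0.0709 to 0.0608 for Gimap3, -0.042 to 0.0556 for Gimap6, -0.32 to 0.66 for Gimap7, -0.0563 to 0.0993 for Gimap8 and -0.0392 to 0.0843 for Gimap9. Over all genes, 1162 calls with PAM3CSK4 against Th17 became 773 with DESeq2, 267 on the RPKM and 354 to 927 with 1 library left out; 0 with biglycan became 29 without the filter, 1 in the 4 libraries alone, 2 on the RPKM and 0 to 4 with 1 library left out; 1342 between the ligands became 881, 388 and 343 to 781 in the same order, and 2228 in the 4 libraries alone. A fit without 1 library leaves a lone library that is assumed to vary like the other groups. The cause of these moves was not tested. Depth limits Gimap7 and Gimap5 most in cultures, and groups of 2 libraries limit every small difference between ligands.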
